A study of Mus musculus with 56 samples.

Results

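Collagen becomes a stable fibre only after enzymes have modified it. Prolyl 4-hydroxylases (P4HA1 and P4HA2 are catalytic subunits) and lysyl hydroxylases (PLOD1, PLOD2 and PLOD3) act on procollagen chains in the endoplasmic reticulum, where prolyl hydroxylation keeps the triple helix stable at body temperature and lysyl hydroxylation prepares the residues that will be cross-linked. Lysyl oxidases (LOX and LOXL1 to LOXL4) are copper-dependent amine oxidases that act outside the cell and turn lysine and hydroxylysine side chains into the aldehydes from which cross-links form in collagen and elastin. In the fibrotic liver some of these enzymes, lysyl oxidases among them, are known chiefly as products of activated stellate cells and portal fibroblasts. Cross-linked matrix is regarded as slow to be degraded. The transcripts of 10 such enzymes (Lox, Loxl1, Loxl2, Loxl3, Loxl4, Plod1, Plod2, Plod3, P4ha1 and P4ha2) were taken by gene symbol from the deposited liver RNA sequencing counts of 21935 genes. Each symbol matched 1 row, and all 10 genes had at least 5 reads in at least 3 mice, which 14105 genes of the table did. On GRCm38, Loxl1 (chr9:58287738-58313186), Loxl4 (chr19:42593982-42612813) and Plod1 (chr4:147909753-147936767) lie on the minus strand, as does Lox on chromosome 18. On the plus strand lie Loxl2 (chr14:69609068-69695834), Loxl3 (chr6:83034173-83052562), Plod2 (chr9:92542223-92608428), Plod3 (chr5:136987019-136996648), P4ha1 (chr10:59323296-59373304) and P4ha2 (chr11:54100095-54131665).

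The livers came from 56 male C57BL/6J mice, 8 in each of 7 groups, that had arrived at 5 to 6 weeks of age and were fed for 36 weeks before dosing began. Chow vehicle mice ate a standard diet. The other 6 groups ate the amylin liver nonalcoholic steatohepatitis (AMLN) diet, high in trans-fat and fructose with added cholesterol, and were kept as diet-induced obese (DIO)-MASH mice only if a liver biopsy showed steatosis and fibrosis. All groups were injected under the skin every day for 8 weeks. They received vehicle (chow vehicle, DIO-MASH vehicle), the fibroblast growth factor 21 analog zalfermin at 0.05 mg/kg (low-dose) or 0.2 mg/kg (high-dose), semaglutide, an agonist of the glucagon-like peptide-1 receptor, at 3 µg/kg (low-dose) or 120 µg/kg (high-dose), or both drugs (combination). The study's methods give the combination as 0.05 mg/kg zalfermin with 3 µg/kg semaglutide, while the series description calls both drugs high-dose and the sample labels state no dose for this group. The former is used here. Reads counted on genes came to between 5228187 and 20885786 per mouse, with a median of 12206788. One low-dose semaglutide mouse was excluded by the study after quality control. The deposited table does not mark it, and all 8 mice were used. Mouse 6 of that group had the lowest level of its group for 8 of the 10 enzymes (all but P4ha1 and P4ha2), so some differences and counts are also given without it. Mice are numbered within a group by sample order only.

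Of the lysyl oxidases, 4 are set side by side at the stretch that gives the family its copper, and that of Lox was not analysed here. It encodes the histidine-rich copper-binding motif of the catalytic domain and was read from the GENCODE transcripts of GRCm38. It is shown to compare these paralogs. Capitals mark the positions at which the 4 genes do not all carry the same base, and 20 of the 33 bases (60.6%) are the same in all 4. Loxl2 and Loxl4 share 31 of 33 bases, Loxl1 and Loxl4 share 21. The stretch lies in coding exons 3 and 4 of Loxl1 (chr9:58293720-58294381, minus strand), exons 10 and 11 of Loxl2 (chr14:69682316-69689037, plus strand), exons 10 and 11 of Loxl3 (chr6:83049995-83050125, plus strand) and exons 11 and 12 of Loxl4 (chr19:42598807-42599899, minus strand), and it is printed with the intron removed.
Loxl1: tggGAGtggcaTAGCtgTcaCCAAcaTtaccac
Loxl2: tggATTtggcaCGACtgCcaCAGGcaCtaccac
Loxl3: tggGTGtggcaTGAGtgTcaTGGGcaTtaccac
Loxl4: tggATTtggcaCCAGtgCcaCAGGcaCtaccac

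No 50-base window of the Lox, Loxl1, Loxl4 or P4ha1 transcripts was found in the transcripts of any other annotated gene. For Loxl2, 45% of such windows recur on the same strand in other genes. These windows lie almost all between bases 62 and 2409 of its longest transcript, and outside that range the share is 3.77%. Over both strands together, 389 other genes share windows with Loxl2. How many windows each of these genes shares is not given here. Loxl3 overlaps the opposite-strand gene Htra2, Plod3 overlaps Znhit1, and Plod2 overlaps Gm38391, and 8.54%, 9.81% and 5.51% of their windows were shared with another gene. Lox and Loxl2 have an annotated antisense gene each (AC161119.1 and Gm27177). On the same strand, 0% of windows were shared for Loxl3, 0% for Plod2 and 0.236% for Plod3. Libraries were stranded, but it is not given in the sources used here whether counting used strand. Reads of these overlapping pairs may thus have been mixed, and the levels of Loxl3, Plod2 and Plod3 are uncertain to that extent. The level of Loxl2 is uncertain under either setting, because its windows recur on the same strand.

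P4ha1 and P4ha2 are textbook targets of hypoxia-inducible factors, and their promoters are shown for that reason, from the RefSeq promoter table on GRCm38.p6 (250 bases before to 50 bases after the gene start). Capitals mark the letters ACGTG, a form of the core of the hypoxia response element, searched on both strands (read as CACGT where it lies on the minus strand). The form GCGTG was not searched and is not marked. ACGTG also lies within the E-box CACGTG. It was found in 3 of the 5 members that have an entry, namely once in Plod3, once in P4ha1 and 2 times in P4ha2, and in 6447 of all 32851 promoters of the same length (19.6%). It was not found in Loxl4 or Plod1. P4ha1 (chr10:59323046-59323345) and P4ha2 (chr11:54100674-54100973) both lie on the plus strand. The RefSeq start of P4ha2 lies downstream of the first base of the GENCODE gene given above, so that its window falls inside that gene.
P4ha1: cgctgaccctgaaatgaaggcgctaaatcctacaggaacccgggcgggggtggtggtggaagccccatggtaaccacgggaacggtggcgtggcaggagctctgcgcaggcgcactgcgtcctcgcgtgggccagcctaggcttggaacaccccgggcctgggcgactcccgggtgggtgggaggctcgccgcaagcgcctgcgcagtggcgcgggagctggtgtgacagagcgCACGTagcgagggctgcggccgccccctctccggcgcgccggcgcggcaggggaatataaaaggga
P4ha2: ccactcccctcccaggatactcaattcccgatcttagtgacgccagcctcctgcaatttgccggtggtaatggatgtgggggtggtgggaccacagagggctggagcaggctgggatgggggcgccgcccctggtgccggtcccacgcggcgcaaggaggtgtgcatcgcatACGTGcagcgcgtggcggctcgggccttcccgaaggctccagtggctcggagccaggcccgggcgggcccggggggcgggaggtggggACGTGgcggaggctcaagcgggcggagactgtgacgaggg

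Lox, Loxl1, Loxl2, Loxl3 and Plod2 were lower in chow-fed than in DIO-MASH vehicle livers without overlap. Loxl4, Plod1 and P4ha1 were lower by less, and Plod3 and P4ha2 were at about the same level in both. Levels are CPM, the count of a gene scaled to a common normalized library size, given as mean ± SD over 8 mice. Differences are log2 fold changes from one edgeR quasi-likelihood fit of all 56 mice, with their standard error (SE) and a p-value adjusted by Benjamini-Hochberg over 14105 genes. An adjusted p under 0.05 is called a change. In chow vehicle against DIO-MASH vehicle mice, 8 of the 10 enzymes were lower and none was higher, where 28.9% of all genes tested were lower and 55.4% differed in either direction. The median log2 fold change of the 10 was -1.26, beside -0.01 over all genes. In liver tissue, fewer cells of a type and less RNA per cell cannot be told apart.

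Lox, the founding member of the family, was measured at 0 to 1.09 CPM in chow vehicle mice (median 0.241), where it rested on 0 to 6 reads per mouse and 1 mouse had none. In DIO-MASH vehicle mice it ranged from 2.25 to 5.01 CPM (median 3.32). The groups did not overlap, and the log2 fold change of chow against DIO-MASH vehicle was -3.40 (SE 0.472, adjusted p = 3.3e-08). Loxl1, which is known for its part in elastic fibre maintenance, ranged from 0.602 to 6.56 CPM (median 1.33) on chow and from 9.65 to 36 CPM (median 25.4) in DIO-MASH vehicle mice. Its difference was -3.46 (SE 0.465, adjusted p = 1.44e-08), again without overlap. Loxl2, an oxidase of collagen IV and of fibrillar collagens, ranged from 0.312 to 2.05 CPM (median 1.56) on chow and from 8.26 to 14 CPM (median 11.2) in DIO-MASH vehicle mice. Every DIO-MASH vehicle mouse was thus far above every chow mouse, with a log2 fold change of -2.93 (SE 0.274, adjusted p = 1.25e-12). It had the smallest adjusted p of the 10.

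Loxl3, another oxidase of matrix proteins, was lower on chow by a smaller margin. It ranged from 0.710 to 2.81 CPM on chow and from 3.20 to 7.36 CPM in DIO-MASH vehicle mice, again without overlap, and the log2 fold change was -1.72 (SE 0.264, adjusted p = 2.77e-07). Loxl4 rested on 3 to 13 reads per mouse on chow and 11 to 38 in DIO-MASH vehicle mice, at 0.867 ± 0.377 and 1.5 ± 0.507 CPM. These ranges overlapped, and the difference was -0.80 (SE 0.272, adjusted p = 0.011).

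Among the lysyl hydroxylases, Plod2 stood with Lox, Loxl1, Loxl2 and Loxl3. PLOD2 hydroxylates the telopeptide lysines from which the more durable hydroxylysine-derived cross-links are built. Its transcript ranged from 0.118 to 1.13 CPM (median 0.291) on chow and from 1.85 to 3.94 CPM (median 2.67) in DIO-MASH vehicle mice, without overlap. The log2 fold change was -2.60 (SE 0.356, adjusted p = 2.32e-08). Plod1, a hydroxylase of lysines in the triple helix, had the highest mean level per kilobase of exon of the 10 in both groups and was lower on chow by -0.37 (SE 0.0921, adjusted p = 0.000613), from 90.2 ± 10.2 CPM in DIO-MASH vehicle to 69.7 ± 9.35 CPM in chow vehicle mice. Plod3, which also transfers sugars to hydroxylysine, was at 28.5 ± 4.32 CPM on chow and 30.1 ± 1.91 CPM in DIO-MASH vehicle mice. For Plod3 the 95% confidence interval of the log2 fold change ran from -0.23 to 0.08 (adjusted p = 0.417).

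The catalytic subunits of prolyl 4-hydroxylase differed from each other. P4ha1 was lower on chow (12.7 ± 5.10 CPM) than in DIO-MASH vehicle mice (19.3 ± 3.62 CPM), with a log2 fold change of -0.61 (SE 0.148, adjusted p = 0.00051) and overlapping ranges. P4ha2 was at 8.09 ± 4.05 and 7.67 ± 1.23 CPM in the same groups, with an interval from -0.27 to 0.44 (adjusted p = 0.692). One chow mouse, mouse 6, had 17.8 CPM of P4ha2 where the other 7 had 4.51 to 8.25. Without that mouse the P4ha2 estimate turned from 0.09 to -0.20, with an adjusted p of 0.282. In all, the mice of the chow and DIO-MASH vehicle groups did not overlap for 5 of the 10 enzymes (Lox, Loxl1, Loxl2, Loxl3 and Plod2), each lower on chow, beside 9.49% of all genes tested.

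**Figure D1:**
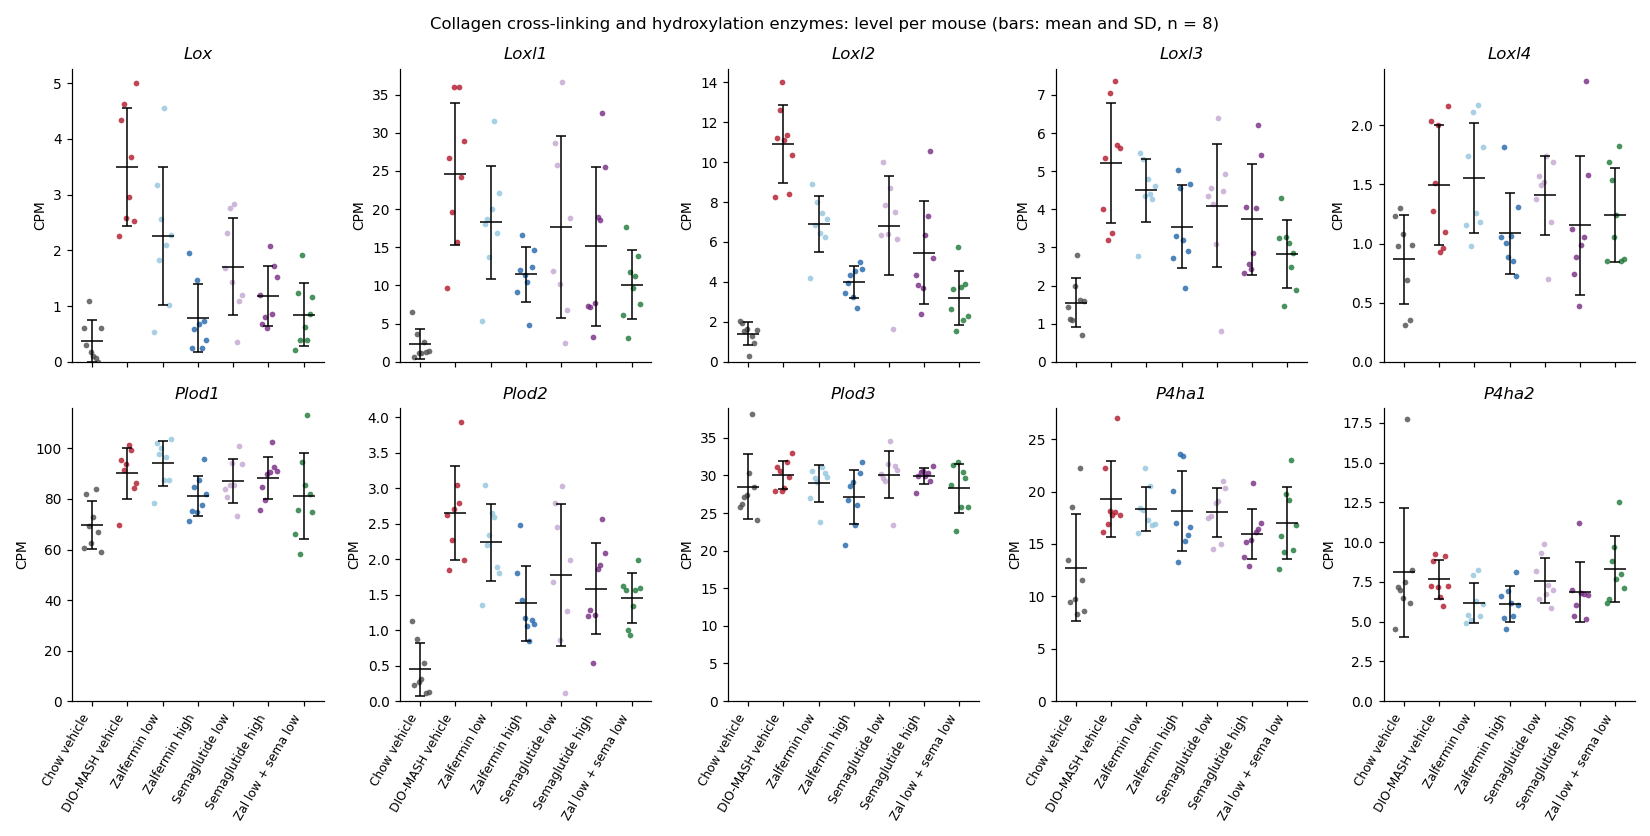
CPM of each enzyme (vertical axes, each with its own scale from 0) in every mouse of the 7 groups; points are mice, bars the mean and SD over 8 mice. Lox, Loxl1, Loxl2, Loxl3 and Plod2 show no overlap between chow vehicle and DIO-MASH vehicle mice, while Plod3 and P4ha2 overlap.

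The combination of low-dose zalfermin and low-dose semaglutide was compared with DIO-MASH vehicle to ask whether it lowered these transcripts. Of the 10 enzymes, 5 were lower and none was higher, where 10.9% of all genes were lower and 20.9% differed in either direction. The 5 were Lox, Loxl1, Loxl2, Loxl3 and Plod2, which are also the ones that did not overlap between the diets. Both comparisons use the same DIO-MASH vehicle mice. The median log2 fold change of the 10 was -0.56, beside -0.03 over all genes.

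Lox ranged from 0.213 to 1.92 CPM (median 0.738) in combination-treated mice, below every DIO-MASH vehicle mouse, with a log2 fold change of -2.0 (SE 0.402, adjusted p = 0.000232). Loxl2 ranged from 1.54 to 5.77 CPM (median 3.13), also without overlap, and changed by -1.74 (SE 0.247, adjusted p = 5.37e-07). Such separation was seen for these 2 of the 10 enzymes, both lower, and for 1.89% of all genes in that direction. Loxl1 ranged from 3.08 to 17.6 CPM (median 10.5) and overlapped with DIO-MASH vehicle mice, yet its difference of -1.27 (SE 0.395) passed the test (adjusted p = 0.0161). Loxl3 changed by -0.86 (SE 0.246, adjusted p = 0.00914), from 5.21 ± 1.57 to 2.83 ± 0.886 CPM. Plod2 went from 2.65 ± 0.663 to 1.45 ± 0.350 CPM, a difference of -0.88 (SE 0.303, adjusted p = 0.031). The Plod2 call was lost when DIO-MASH vehicle mouse 7, combination mouse 3 or combination mouse 4 was left out, with adjusted p-values up to 0.075.

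Loxl4, Plod1, Plod3, P4ha1 and P4ha2 did not pass the test in combination-treated mice. Their log2 fold changes were -0.26, -0.15, -0.09, -0.19 and 0.11, with adjusted p-values from 0.241 to 0.707. The intervals were narrow for Plod3 (-0.24 to 0.07) and Plod1 (-0.33 to 0.03) and wide for Loxl4 (-0.78 to 0.25).

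High-dose zalfermin gave a like picture with 4 of 10 enzymes lower and none higher, where 8.68% of all genes were lower and 17.2% differed in either direction. Lox ranged from 0.243 to 1.96 CPM (median 0.631) and changed by -2.24 (SE 0.421, adjusted p = 9.11e-05). Loxl2 ranged from 2.67 to 4.99 CPM (median 4.16) and changed by -1.43 (SE 0.244, adjusted p = 2.05e-05). Neither overlapped with DIO-MASH vehicle mice, which was so for 2.47% of all genes in that direction. Plod2 (1.38 ± 0.530 CPM, -0.94, SE 0.307) had an adjusted p of 0.0262 and Loxl1 (11.5 ± 3.56 CPM, -1.08, SE 0.393) one of 0.0469.

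These last 2 calls did not hold in every alternative fit. The Loxl1 call was lost in 11 of the 56 fits that leave out 1 mouse, with no filter beyond 1 read (adjusted p = 0.0562) and with the series of mouse numbers, described at the end, as a covariate (adjusted p = 0.0603). Without DIO-MASH vehicle mouse 7 or high-dose zalfermin mouse 6, neither Loxl1 nor Plod2 passed, and 2 of 10 enzymes remained. Loxl3, at 3.54 ± 1.09 CPM, changed by -0.54 (SE 0.244) without passing the test (adjusted p = 0.121).

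High-dose semaglutide lowered 2 of the 10 enzymes, beside 1% of all genes lower and 2.43% changed in either direction. Lox ranged from 0.607 to 2.08 CPM (median 1.03), which left no overlap with DIO-MASH vehicle mice, and changed by -1.56 (SE 0.387, adjusted p = 0.0195). It was the only enzyme of the 10 without overlap, where 0.255% of all genes were lower without overlap. Loxl2 ranged from 2.39 to 10.6 CPM (median 4.77) and changed by -0.99 (SE 0.236, adjusted p = 0.0154). Neither call passed without high-dose semaglutide mouse 3 or without mouse 4, and the Lox call was also lost without mouse 2. The highest adjusted p among these fits was 0.0618 for Lox and 0.0597 for Loxl2. Plod2 (-0.74, SE 0.297, adjusted p = 0.185), Loxl1 (-0.69, SE 0.384, adjusted p = 0.348) and Loxl3 (-0.46, SE 0.24, adjusted p = 0.312) had estimates below 0 that did not pass.

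**Figure D2:**
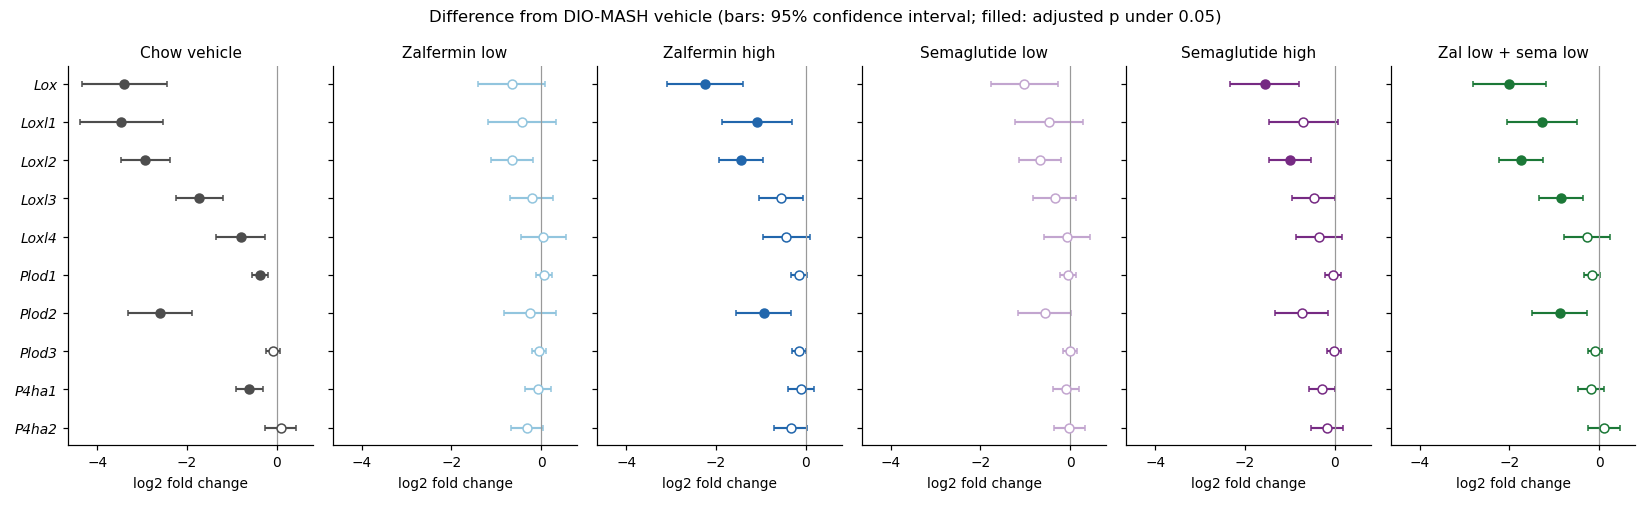
Log2 fold change (horizontal axis) of each enzyme in each of 6 groups against DIO-MASH vehicle, with 95% confidence intervals that are not adjusted for multiple testing; filled points have an adjusted p under 0.05. Filled points number 8 for chow vehicle, 5 for the combination, 4 for high-dose zalfermin, 2 for high-dose semaglutide and 0 for each low dose.

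Neither low dose alone changed any of the 10 enzymes by edgeR's adjusted p. With low-dose zalfermin, 0.468% of all genes passed, and 1 enzyme had an unadjusted p under 0.05. That was Loxl2, at 4.21 to 8.89 CPM (median 7.01), with a log2 fold change of -0.66 (SE 0.234, unadjusted p = 0.00703, adjusted p = 0.209). All 8 of these mice lay below the DIO-MASH vehicle median and 7 lay below the lowest DIO-MASH vehicle mouse. In a fit of only these groups, Loxl2 passed with an adjusted p of 0.0228, and DESeq2's Wald test, which called 1.5% of all genes, called 0 of the 10. With low-dose semaglutide, 0% of all genes passed (0 of 14105 by edgeR and 32, or 0.227%, by DESeq2), while Lox (-1.02, SE 0.374, unadjusted p = 0.00875) and Loxl2 (-0.67, SE 0.233, unadjusted p = 0.00611) had adjusted p-values of 0.407 and 0.38. DESeq2 called 0 of the 10 enzymes here too, but that count cannot serve as a test of most of them. Its filter on mean count left Plod3 without an adjusted p, and of the 10 only Plod1 had more reads in total. The 0.227% is a share of all genes kept, those without an adjusted p included.

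Low-dose semaglutide mouse 6 stood apart in this group. It had 0.352 CPM of Lox, 2.46 of Loxl1, 1.64 of Loxl2, 0.821 of Loxl3 and 0.117 of Plod2, the lowest values of its group. The first 4 lay within the range of the chow mice, and Plod2 lay just below its lowest chow value. Without it, the estimates against DIO-MASH vehicle moved to -0.88 for Lox and -0.53 for Loxl2, and 0 of 10 enzymes passed. Whether it is the mouse that the study excluded is not known.

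Doses were compared directly. High-dose against low-dose zalfermin lowered 1 of the 10 enzymes, where 1.84% of all genes differed. It was Lox (-1.59, SE 0.427, adjusted p = 0.035), a call that was lost in 9 of the 56 fits with 1 mouse left out. Loxl2 (-0.78, SE 0.246) had an adjusted p of 0.0912, and it passed without low-dose zalfermin mouse 1 or low-dose semaglutide mouse 6. High-dose against low-dose semaglutide changed 0 of 10 enzymes and 0% of all genes by edgeR, and 0 of the 10 had an unadjusted p under 0.05. For Loxl2 that interval ran from -0.80 to 0.15, and for Lox from -1.33 to 0.25.

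The combination was set against each of its components at the same dose. Against low-dose zalfermin, 2 of 10 enzymes were lower, beside 6.62% of all genes changed in either direction. These were Loxl2 (-1.09, SE 0.248, adjusted p = 0.00381) and Lox (-1.35, SE 0.408, adjusted p = 0.0326). The Lox call was lost in 7 of the 56 fits with 1 mouse left out and in the fit of only these groups. Against low-dose semaglutide, Loxl2 alone was lower (-1.08, SE 0.247, adjusted p = 0.00555), beside 4.21% of all genes changed. In a fit of only those groups it did not pass, and without mouse 6 of low-dose semaglutide the count stayed at 1.

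No departure from additivity on the log2 scale passed the test for any enzyme by edgeR. The low-dose interaction (combination minus both low doses plus vehicle) had 0 of 10 enzymes past the threshold and 0 with an unadjusted p under 0.05, beside 0.0142% of all genes called. For Loxl2 it was -0.42 with an interval from -1.10 to 0.26, and for Lox -0.33 with an interval from -1.42 to 0.77. Intervals of this width leave room for sizeable departures in either direction.

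Against the high doses, the combination changed 0 of 10 enzymes. This was so against high-dose zalfermin (0.503% of all genes called) and against high-dose semaglutide (1.89% called). Against high-dose semaglutide, Loxl2 was lower by -0.75 with an interval from -1.25 to -0.25 and an adjusted p of 0.108. It was the 1 enzyme there with an unadjusted p under 0.05, and it passed when high-dose semaglutide mouse 3 or combination mouse 4 was left out. Against high-dose zalfermin, P4ha2 (0.44, interval 0.08 to 0.80, adjusted p = 0.316) was the 1 enzyme with an unadjusted p under 0.05. Between the high doses of the compounds, zalfermin minus semaglutide, 0 of 10 passed and 0 had an unadjusted p under 0.05, beside 0.447% of all genes called. The interval was -1.56 to 0.20 for Lox and -0.93 to 0.06 for Loxl2.

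Treated livers were also compared with chow vehicle livers, to ask how far the transcripts remained above the level of mice without the diet. In combination-treated mice 6 of 10 enzymes were higher than on chow and none was lower, beside 17.4% of all genes higher and 32.4% changed. Loxl1 was the farthest above, at 2.19 (SE 0.468, adjusted p = 0.000258), followed by Plod2 at 1.72 (SE 0.37, adjusted p = 0.000273), Lox at 1.4 (adjusted p = 0.0306), Loxl2 at 1.19 (adjusted p = 0.000988), Loxl3 at 0.87 (adjusted p = 0.0111) and P4ha1 at 0.42 (adjusted p = 0.0263). The Lox and P4ha1 calls were each lost in 6 of the 56 fits with 1 mouse left out and in a fit of only these groups. Plod1 (0.22, adjusted p = 0.0607) did not pass by edgeR but passed by DESeq2, with DESeq2's size factors in edgeR and in 4 of the fits with 1 mouse left out.

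After high-dose zalfermin, 5 of 10 were higher than on chow, beside 19.7% of all genes higher and 37.2% changed. They were Loxl1 (2.38), Plod2 (1.66), Loxl2 (1.49), Loxl3 (1.18) and P4ha1 (0.51), while Lox at 1.15 (SE 0.532) did not pass (adjusted p = 0.0822) by edgeR and passed by DESeq2. The P4ha1 call was lost in a fit of only these groups. After high-dose semaglutide, 6 of 10 were higher, beside 21.3% of all genes higher and 39.9% changed. They were Loxl1 (2.77), Loxl2 (1.93), Plod2 (1.86), Lox (1.83), Loxl3 (1.26) and Plod1 (0.34).

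Put side by side as a share of the chow against DIO-MASH vehicle difference on the log2 scale, the treatments covered different amounts for different enzymes. These shares use the same DIO-MASH vehicle mice above and below the line and are given without a test. In combination-treated mice the share was 59.5% for Loxl2, 58.9% for Lox, 49.8% for Loxl3, 36.7% for Loxl1 and 33.7% for Plod2. High-dose zalfermin covered 66.1% for Lox, 49% for Loxl2, 36.1% for Plod2 and 31.3% for both Loxl1 and Loxl3. High-dose semaglutide covered 46% for Lox, 34% for Loxl2, 28.3% for Plod2, 26.9% for Loxl3 and 20.0% for Loxl1. The other 3 enzymes that differed with diet had small diet differences, and their treated differences did not pass the test. Their shares, with the groups in the order just used, were 33%, 53.5% and 44.5% for Loxl4, 40.8%, 41.1% and 7.77% for Plod1, and 31%, 15.5% and 45.8% for P4ha1. The order of the enzymes was not the same in the 3 groups, with Lox or Loxl2 the highest in each. In the same order, the shares of the fibrillar collagen genes were 48.3%, 47.6% and 28.6% for Col1a1 and 58.2%, 54.8% and 31.5% for Col3a1.

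Levels were compared between enzymes only per length, as CPM per kilobase of annotated exon. For Loxl2 this length includes the recurring stretch, which leaves its level per kilobase uncertain. The length pools the exons of all annotated transcripts of a gene. It was 6239 bases for P4ha2, whose longest transcript has 3060, and 4519 for Plod3, whose longest has 3280. For Loxl1 both lengths were 3297. The order of the enzymes and the overlaps between neighbours depend on this choice, and no other length was tried. In DIO-MASH vehicle mice the order of the mean level per kilobase was Plod1 (13.3), Loxl1 (7.46), Plod3 (6.65), P4ha1 (4.68), Loxl2 (2.02), P4ha2 (1.23), Loxl3 (1.13), Lox (0.732), Plod2 (0.492) and Loxl4 (0.355). Between neighbours in that order, the ranges of the 8 mice overlapped except from P4ha1 to Loxl2 and from Loxl2 to P4ha2. In chow vehicle mice Plod1 (10.3), Plod3 (6.30), P4ha1 (3.10) and P4ha2 (1.30) led, all above the lysyl oxidases, of which Loxl1 (0.696) was the highest and Lox (0.0780) the lowest. There only Plod1 and Plod3 did not overlap as neighbours. In combination-treated mice Loxl1 (3.07) stood between P4ha1 (4.13) and P4ha2 (1.33), while Loxl2 (0.592) and Loxl3 (0.614) lay below P4ha2.

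**Figure D3:**
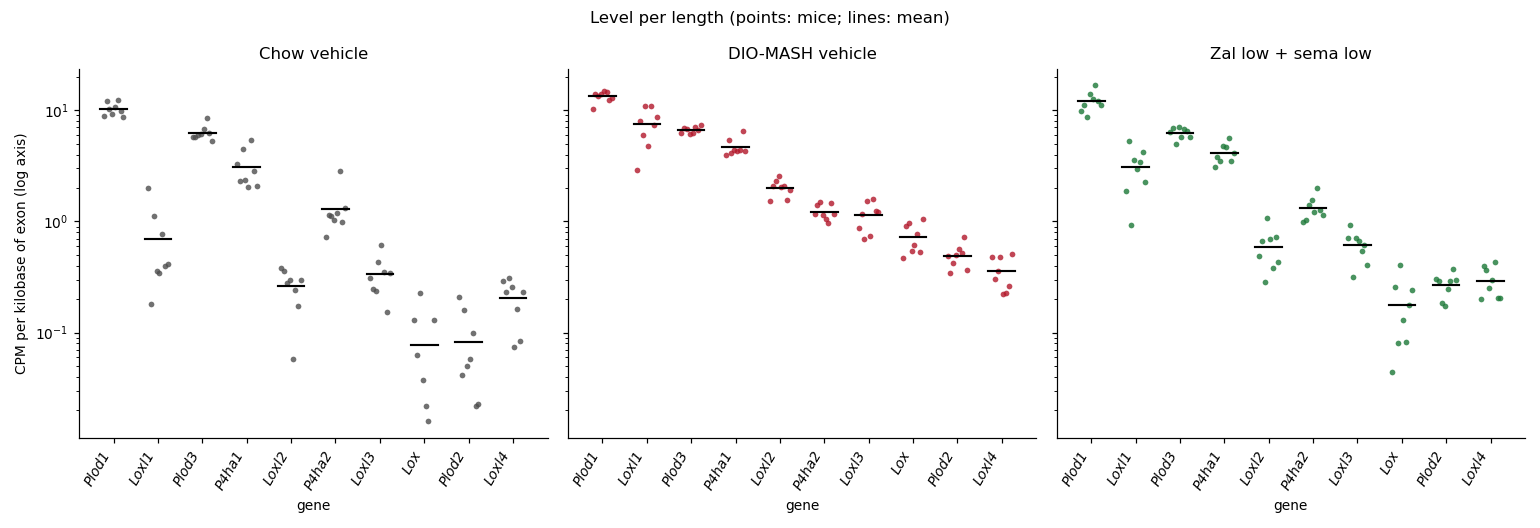
Level per length (CPM per kilobase of exon, log axis) of the 10 enzymes, ordered by their mean in DIO-MASH vehicle mice, in 3 of the 7 groups; points are mice and lines means, and the 1 chow mouse without a Lox read is not drawn. Loxl1 is at 0.696 on chow, 7.46 in DIO-MASH vehicle and 3.07 in combination-treated mice, while Plod3 is at 6.30, 6.65 and 6.26.

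The enzymes varied unequally between mice of one group. The biological coefficient of variation of the fit was highest for Loxl1 (55.2%) and Lox (48.6%) and lowest for Plod3 (9.84%) and Plod1 (12.9%), beside 22.6% for all genes in common. Loxl1 in DIO-MASH vehicle mice spanned 9.65 to 36 CPM. In high-dose semaglutide mice it spanned 3.19 to 32.6 CPM.

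How far the enzymes varied together from mouse to mouse differed between them. The following are descriptions over the same 56 libraries, which share groups and depth, and no test is attached. Low-dose semaglutide mouse 6, at 19.2 CPM of Col1a1, is among them, and no correlation was computed without it. The Pearson correlation (r) of log2 CPM with Col1a1, the alpha-1 chain of type I collagen, was 0.95 for Loxl2, 0.93 for Loxl1, 0.86 for Lox, 0.86 for Plod2 and 0.84 for Loxl3. After each group's mean was subtracted it was 0.82, 0.87, 0.67, 0.68 and 0.64. P4ha2 had r = -0.08 with Col1a1 and -0.02 after subtraction, and Plod3 had 0.38 and 0.42. Loxl4 (0.57 and 0.40), Plod1 (0.68 and 0.44) and P4ha1 (0.64 and 0.41), which also differed with diet, were after subtraction close to Plod3, which did not pass that test. Within the family, Loxl1 and Plod2 had r = 0.89 (0.76 after subtraction) and Lox and Loxl2 0.84 (0.58), whereas Lox and Plod1 had 0.49 (0.12) and Loxl4 and Plod1 0.28 (0.01).

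**Figure D4:**
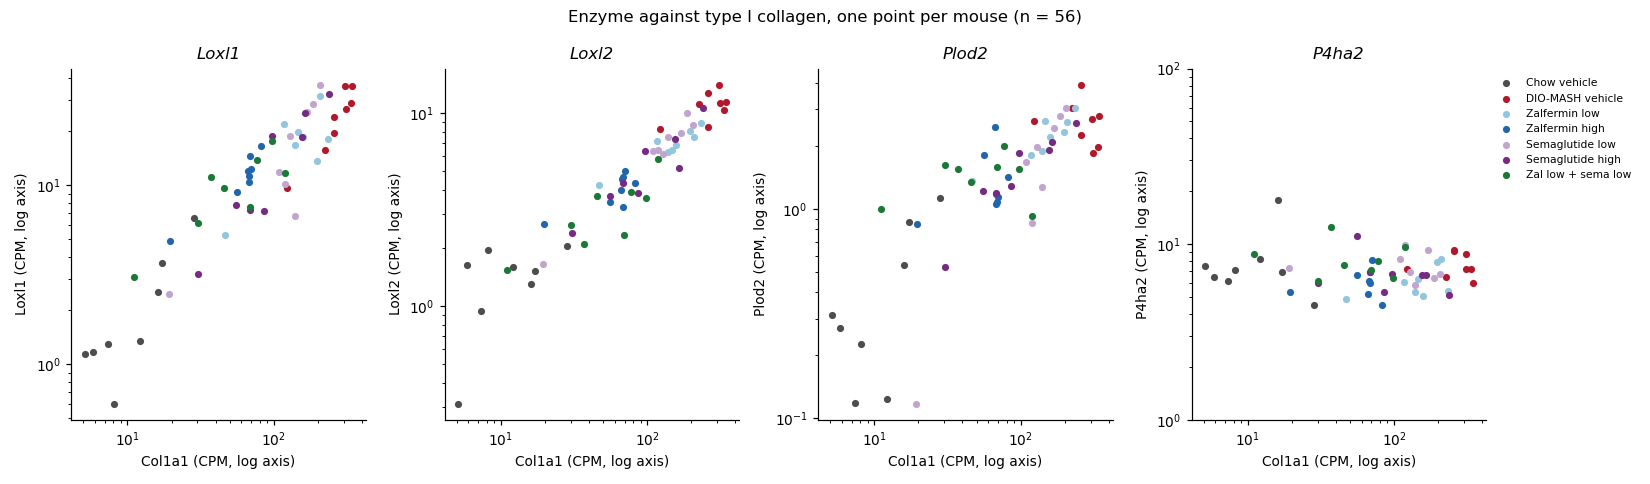
CPM of Loxl1, Loxl2, Plod2 and P4ha2 (vertical log axes, each with its own range) against CPM of Col1a1 (horizontal log axes), 1 point per mouse, coloured by group, n = 56. Loxl1, Loxl2 and Plod2 climb with Col1a1 (r of log2 CPM 0.93, 0.95 and 0.86), whereas P4ha2 does not (r = -0.08).

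For each enzyme the 3 genes outside the list with the highest r of log2 CPM were named, among genes with a mean of 1 CPM or more. For Lox they were Col3a1 (0.88), Nid1 (0.87) and Fkbp1a (0.86). For Loxl1 they were Itga8, Col6a3 and Mrc2 (all 0.96), and for Loxl2 Col3a1 (0.97), Fbn1 (0.97) and Col5a1 (0.95). Loxl3 was nearest to Rragd (0.89), P3h3 (0.88) and Col6a3 (0.88), and Plod2 to Lhfp (0.90), Astn2 (0.89) and Frzb (0.89). After subtraction of group means these values lay between 0.65 and 0.92.

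The nearest genes of the other enzymes had lower r, from 0.61 to 0.79. Loxl4 had Pdk4 (0.68), Epb41l1 (0.68) and Megf6 (0.67), Plod1 had Myh9 (0.79), Atp9a (0.79) and Tgm2 (0.78), and Plod3 had Galk1 (0.66), Cdc42ep1 (0.65) and Pex11a (0.65). P4ha1 was nearest to Mal2 (0.71), Aebp1 (0.70) and Hsp90aa1 (0.69). P4ha2 was nearest to Creld2 (0.64), Rrp12 (0.62) and Ttpal (0.61).

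Transcripts of the proteins on which these enzymes act were taken from a list of 12 cross-linked substrates, fibrillar collagens and elastin among them. In chow against DIO-MASH vehicle mice 11 of 12 were lower and 0 higher, where 28.9% of all genes were lower. The median log2 fold change of the 12 was -3.28. Those with the largest differences were Col1a1 (-4.44, from 271 to 12.5 CPM), Col3a1 (-4.01), Col6a3 (-3.90) and Eln, which encodes elastin (-3.53). In combination-treated mice all 12 were lower, where 10.9% of all genes were lower. Their median was -1.53, led by Col3a1 (-2.33), Col1a1 (-2.15), Col5a2 (-1.91) and Eln (-1.90). High-dose zalfermin lowered 12 of 12 and high-dose semaglutide 5 of 12, where 8.68% and 1% of all genes were lower. Each low dose changed 0 of 12.

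Partners of the same maturation pathway (chaperones, procollagen proteinases, other hydroxylases and related genes) made a list of 22, of which 20 had enough reads to be tested. On chow 13 were lower and 3 higher than in DIO-MASH vehicle mice, with a median of -1.28. Of all genes, 28.9% were lower there and 55.4% differed in either direction. The largest differences were those of Adamts2, a procollagen N-proteinase (-3.16), P3h3, a prolyl 3-hydroxylase family member (-2.43), Serpinh1, the collagen chaperone HSP47 (-2.41), and Fkbp10, a collagen-directed prolyl isomerase (-2.10). The combination lowered 10 and raised 2, where 10.9% of all genes were lower and 20.9% differed in either direction. Their median was -0.53, led by Adamts2 (-1.31), Serpinh1 (-1.02), Pcolce, the procollagen C-proteinase enhancer (-0.99), and P3h3 (-0.94). High-dose zalfermin lowered 7 and raised 1, where 17.2% of all genes differed. High-dose semaglutide and both low doses changed 0 of the 20.

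Hypoxia-inducible genes, a list of 14 set beside P4ha1 and P4ha2, gave calls in both directions. On chow 6 were higher and 4 lower than in DIO-MASH vehicle mice, where 55.4% of all genes differed, with a median of 0.07. Car9 (3.83), Hk2 (-3.33), Adm (-1.32) and Pdk1 (0.66) had the largest differences. In combination-treated mice 3 were higher (Pdk1 0.52, Bnip3 0.45 and Vegfa 0.41) and 1 lower (Hk2 -1.54), where 20.9% of all genes differed, with a median of -0.10. High-dose zalfermin raised 2 and lowered 2, and high-dose semaglutide raised 1, where 17.2% and 2.43% of all genes differed.

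Marker genes of other liver cell types also differed between some of these groups. Counts of called markers are to be read against the shares of all genes. On chow 28.9% of all genes were lower and 55.4% differed in either direction, and with the combination 10.9% and 20.9%. With high-dose zalfermin 8.68% were lower and 17.2% differed, and with high-dose semaglutide 1% and 2.43%. The 12 stellate cell and myofibroblast markers summed to 712 to 1002 CPM in DIO-MASH vehicle, 238 to 435 on chow and 443 to 752 in combination-treated mice, with 8 of 12 lower and 1 higher on chow and 6 of 12 lower with the combination. High-dose zalfermin lowered 1 of 12 (395 to 750 CPM) and high-dose semaglutide 0 (472 to 1317 CPM). Hepatocyte markers summed to 62977 to 85623 CPM in DIO-MASH vehicle mice, 150375 to 243173 on chow and 87227 to 137930 with the combination, and of 7 such markers, 7 were higher on chow, 5 with the combination, 6 after the high dose of zalfermin and 1 after that of semaglutide. Of 8 macrophage markers, 7 were lower on chow (72.2 to 187 CPM, beside 215 to 336 in DIO-MASH vehicle), and with the combination 2 were lower and 1 higher. With high-dose zalfermin 3 were lower and 1 higher. Of 6 cholangiocyte markers, 3 were lower on chow and 1 with the combination, and their sum ran from 192 to 590 CPM in DIO-MASH vehicle, 32.2 to 292 on chow and 55.7 to 241 with the combination. Of 6 sinusoidal endothelial markers, 3 were lower and 1 higher on chow and 2 lower with the combination, with overlapping sums of 190 to 246, 169 to 266 and 157 to 240 CPM. After each high dose alone, 0 of these 6 and 0 of the 6 cholangiocyte markers passed by edgeR. The part of these shifts in the enzymes' results was not tested. Hepatocyte markers summed to 62977 CPM or more in every mouse of the 7 groups, as liver should. Of 3 pancreas markers, Prss2 or Ctrb1 had no read in any mouse of each group, the 1 with enough reads was higher on chow and lower with the combination, and the list summed to at most 22.6 CPM, and the adipocyte markers summed to at most 0.728 CPM, with Lep unread in all groups but high-dose zalfermin.

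Mouse numbers in the labels fall into 4 series, A to D (22, 15, 16 and 3 mice), whose meaning the labels do not give. Series A, B and C occur in every group, with 1 to 4 mice each. Within series A, B and C, chow minus DIO-MASH vehicle on log2 CPM was -2.45, -1.46 and -3.51 for Lox, -2.84, -2.54 and -4.14 for Loxl1, -2.18, -2.91 and -3.20 for Loxl2, -1.74, -1.82 and -1.56 for Loxl3, and -1.74, -1.45 and -2.73 for Plod2. It was -0.50, -0.11 and -0.58 for Loxl4, -0.21, -0.46 and -0.33 for Plod1, and -0.74, 0.07 and -0.85 for P4ha1, so that P4ha1 in series B, with 1 chow mouse, did not share the direction.

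For the combination against DIO-MASH vehicle the within-series values were -1.90, -2.39 and -1.47 for Lox, -1.0, -1.09 and -1.51 for Loxl1, -1.61, -2.10 and -1.65 for Loxl2, -0.66, -0.59 and -1.42 for Loxl3, and -0.75, -0.80 and -0.84 for Plod2. For high-dose zalfermin they were -1.92, -2.07 and -2.18 for Lox, -1.26, -1.83 and -0.99 for Loxl2, -0.38, -1.41 and -1.12 for Loxl1, and -0.23, -1.25 and -1.45 for Plod2. For high-dose semaglutide they were -1.78, -1.19 and -0.85 for Lox and -1.42, -0.86 and -0.39 for Loxl2. All of these treated differences were below 0 in each series.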

How the data were processed

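Liver RNA of 56 mice in 7 groups of 8 was measured. The deposited values are raw read counts per gene, which the authors did not normalize. The study's methods describe TruSeq stranded libraries, NextSeq sequencing and STAR alignment (GRCm38, Ensembl 89 annotation), whereas the submitters' processing notes name Trim Galore 0.6.4 and Salmon 1.9.0. Which program made the counts, and whether it used strand, is not given in the sources used here. Reads of similar or overlapping genes may have been shared out or dropped depending on that program.

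Groups were taken from the labels. Depth was 5228187 to 20885786 reads per mouse (median 12206788), and Lox, Loxl4 and Plod2 rest on few reads, so that their differences are imprecise. No pair of mice in a group had copied columns (smallest chi-square per degree of freedom 7.11). A gene was kept if at least 3 mice had at least 5 reads of it (14105 of 21935, of which 4352 had no read). edgeR 4.0.16 in R 4.3.3 was run with TMM normalization, 1 quasi-likelihood fit over every group without covariates, F tests and Benjamini-Hochberg adjustment over the genes kept, at a threshold of 0.05. SE is the size of the log2 fold change divided by the square root of F. The steps were tested on simulated data. For log2 CPM a prior count of 2 was added. Lengths, exons and shared 50-base windows came from the GENCODE annotation of GRCm38 (Ensembl 96), promoters from RefSeq. Figures were drawn with matplotlib 3.10.9.

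All 10 enzymes are named in the comparisons. Genes of the other lists are counted by direction and named only as the 4 largest called differences for chow and for the combination. The members and lists were chosen with earlier results of these data known. Alternatives were DESeq2 1.42.0 (Wald test), its size factors within edgeR, no filter beyond 1 read, 10 or more reads in 8 or more mice, a covariate for the series of mouse numbers, fits restricted to the groups in question, leaving out each mouse and, added after seeing the data, a block of runs of mouse numbers. Histology, biochemistry and body weight were not analysed here.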

Additional observations from a re-analysis of the deposited data

Results flagged for a closer look

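In 10 of 70 sets of 8 mice (10 enzymes in 7 groups) 1 mouse lay apart from the other 7, its gap on the log2 CPM scale divided by the group's range exceeding Dixon's critical value. Chance flags about 1 in 20 sets. Of these, 5 came from low-dose semaglutide mouse 6, the lowest of its group for Loxl2 (log2 CPM 0.8536, 1.64 CPM beside 6.14 to 10.03 in the others), Loxl3 (-0.02043, 0.821 CPM beside 3.09 to 6.41), Loxl4 (-0.2032, 0.704 CPM beside 1.19 to 1.74), Plod2 (-1.826, 0.117 CPM from 1 read beside 0.856 to 3.04) and Plod3 (4.562, 23.5 CPM beside 29.3 to 34.5). Low-dose zalfermin mouse 1 was the lowest of its group for Loxl1 (2.449, 5.29 CPM beside 13.7 to 31.5) and for Loxl3 (1.56, 2.78 CPM beside 4.27 to 5.47). Chow mouse 5 was the lowest for Loxl2 (-1.068, 0.312 CPM from 3 reads beside 0.946 to 2.05). P4ha2 was highest in chow mouse 6 (4.163, 17.8 CPM beside 4.51 to 8.25) and in high-dose semaglutide mouse 4 (3.507, 11.2 CPM beside 5.15 to 6.96).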

How the results depend on the processing

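In fits of only the groups compared, the count of enzymes called went from 0 to 1 for low-dose zalfermin against DIO-MASH vehicle (Loxl2), from 1 to 2 for high- against low-dose zalfermin, from 2 to 1 for the combination against low-dose zalfermin and from 1 to 0 for the combination against low-dose semaglutide. Beside these and the block described at the end, no count moved by over 1.5 times under the 7 alternatives. With each of the 56 mice left out in turn, the count ranged from 2 to 4 for high-dose zalfermin against DIO-MASH vehicle, 0 to 2 for high-dose semaglutide against DIO-MASH vehicle, 0 to 2 for high- against low-dose zalfermin, 1 to 2 for the combination against low-dose zalfermin and 0 to 1 for the combination against high-dose semaglutide. It was 8 in every such fit for chow against DIO-MASH vehicle and 4 to 6 for the combination against DIO-MASH vehicle.

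Against DIO-MASH vehicle, signs reversed only for log2 fold changes near 0 that passed no test. Plod3 with low-dose semaglutide, 0.0016 as reported, was -0.003949 by DESeq2, -0.005004 with its size factors, -0.000749 with the covariate and -2.193e-05 in a fit of only those groups, and with high-dose semaglutide it was 0.0003223 in such a fit. With 1 mouse left out, signs reversed within the ranges -0.196 to 0.1782 for P4ha2 on chow, -0.03534 to 0.1405 for Loxl4 and -0.1204 to 0.01151 for P4ha1 with low-dose zalfermin, and -0.06951 to 0.00548 for Plod1 and -0.02959 to 0.01665 for Plod3 with high-dose semaglutide. With low-dose semaglutide the ranges were -0.1432 to 0.02071 for Loxl4, -0.02753 to 0.04462 for Plod3 and -0.08326 to 0.03058 for P4ha2. The cause of these changes was not tested. Of 420 single values under those 7 alternatives, 406 kept direction and side of the threshold, and of 3360 with 1 mouse left out, 3304 did. Depth limits Lox most, at a median of 12.5 reads per mouse.

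The labels give no replicate number that recurs between groups, but the mouse numbers form 13 runs of 1 to 7 near-consecutive numbers, and a replicate block of these runs was added after seeing the data. What a run stands for is not given. Mice of different groups in the same run deviated from their group means with a median r of 0.05056 over genes (34.21% of 114 pairs over 0.1), beside -0.001798 across runs (23.58% of 1230 pairs), so the runs are not taken to pair the mice. With the replicate block the count for high-dose semaglutide against DIO-MASH vehicle went from 2 to 1, without Lox (adjusted p = 0.05885), and that for high-dose zalfermin from 4 to 3, without Loxl1 (adjusted p = 0.0543). It stayed at 8 for chow and 5 for the combination. Against chow, the combination lost Lox and Loxl3 and gained Plod1 under the block, and high-dose zalfermin gained Plod1. Signs reversed under the block for P4ha2 on chow (-0.1257) and with low-dose semaglutide (0.05767) and for Plod1 with low-dose (0.0008733) and high-dose (0.009372) semaglutide, none of which passed a test.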
